A study of Mus musculus with 2 samples.

Results

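The genes described here are the 3 D cyclins (Ccnd1, Ccnd2 and Ccnd3), their partner kinases (Cdk4 and Cdk6) and the retinoblastoma family of pocket proteins (Rb1, Rbl1 and Rbl2), 8 of the 21938 protein-coding genes on the assembled mouse chromosomes. They were taken by name as a pathway, by a rule that uses no measured value but was set with earlier results of these data known, and their open regions were read from the peak lists of each library. The assay was ATAC-seq: the Tn5 transposase cuts and tags exposed DNA, and places where many cuts pile up are called as peaks of accessible chromatin. The series holds 1 group with 2 libraries, each made from 50000 hematopoietic stem cells; the donors were male mice of the C57BL/6J strain, 5 to 6 weeks old, with no genetic change or treatment named in the labels. The labels call the libraries biological replicates under the same donor identifier, and whether they came from separate animals is not stated. Replicate 1 is labelled with a pair of sequencers and replicate 2 with none. With no second cell type or condition, every value is a description of these libraries, and no test between groups was possible.

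D cyclins are made when a growth signal reaches a cell. They bind and switch on Cdk4 or Cdk6, and the pair phosphorylates the pocket proteins. Unphosphorylated pocket proteins hold E2F transcription factors in check; once they are released, the genes of DNA synthesis are transcribed and the cell leaves G1. Most hematopoietic stem cells are quiescent at any moment. Mice that lack all 3 D cyclins die as embryos with failing blood formation, and mice that lose all 3 pocket proteins in the blood system overproduce stem cells and myeloid cells. ATAC-seq reads whether the DNA of these genes is exposed, not whether they are transcribed.

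A promoter was taken as 1000 bp either side of any annotated transcript start (TSS) of a gene, and a promoter was called open when both libraries had a peak over it in their strict lists. The strict lists hold peaks that passed the authors' irreproducible discovery rate (IDR) threshold, a −log10 global IDR of at least 1.30, which measures how well a peak's rank is repeated between subsamples of a library. The less strict lists are those of peaks found in pseudoreplicates, random subsamples of 1 library. The signal value of a peak is the one assigned by the authors' peak caller. It is given below with its percentile within its own list, since the scales of the lists differ. The lists do not give read depth. A missing peak therefore means that none was called at that threshold, and says nothing about closed chromatin.

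4 of the 8 genes had an open promoter in both strict lists: Ccnd3, Cdk4, Rbl2 and, at an intronic start, Ccnd1. The share over all protein-coding genes was 42.5%, so 4 of 8 lies near the background. Rb1 and Rbl1 had a promoter peak in the strict list of replicate 2 only; a peak in exactly 1 strict list, of either library, was found for 7.71% of all genes. Ccnd2 and Cdk6 had none in either strict list. In the less strict lists all 8 genes had a promoter peak in both libraries, against 59.5% of all genes. Counting only starts of transcripts annotated as protein coding left 3 of the 8 (Ccnd3, Cdk4 and Rbl2), against 41.4% of all genes. Counting only the most 5′ start left 2, Cdk4 and Rbl2, against 38.3% of all genes. Thus the promoters of one kinase and one pocket protein, Cdk4 and Rbl2, were open at the 5′ end of the gene in both libraries under each of these definitions.

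The promoter sequences are shown because they differ in the letters that factors of the cell cycle read. RefSeq's promoter table for GRCm38.p6 (mm10) matched 5 of the 8 genes with 6 promoters (2 of Ccnd3); Ccnd1, Ccnd2 and Rb1 were not matched. Each line gives up to 250 bases before the start, 5′ to 3′ on the strand of the gene, without annotated exon bases. Capitals mark CACGTG (the E-box read by Myc and its relatives), GGGCGG (the Sp1 box), CCAAT (read by NF-Y), CCGGAAG or AGGAAGT (ETS factors) and TTTGAA or TTCGAA (the cell cycle homology region, read by the MuvB complex), on either strand.
Rbl2, chr8:91069807-91070056, plus strand: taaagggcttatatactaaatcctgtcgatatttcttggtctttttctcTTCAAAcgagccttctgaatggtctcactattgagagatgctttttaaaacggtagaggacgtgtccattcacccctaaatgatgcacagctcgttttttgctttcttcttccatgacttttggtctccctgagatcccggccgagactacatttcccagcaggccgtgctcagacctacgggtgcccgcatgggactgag
Cdk4, chr10:127063285-127063533, plus strand: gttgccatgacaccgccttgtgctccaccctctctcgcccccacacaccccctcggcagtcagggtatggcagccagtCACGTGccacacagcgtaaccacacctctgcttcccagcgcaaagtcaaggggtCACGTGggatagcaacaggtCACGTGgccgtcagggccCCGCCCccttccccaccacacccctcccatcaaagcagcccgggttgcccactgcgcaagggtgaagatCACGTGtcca
Rbl1, chr2:157204535-157204784, minus strand: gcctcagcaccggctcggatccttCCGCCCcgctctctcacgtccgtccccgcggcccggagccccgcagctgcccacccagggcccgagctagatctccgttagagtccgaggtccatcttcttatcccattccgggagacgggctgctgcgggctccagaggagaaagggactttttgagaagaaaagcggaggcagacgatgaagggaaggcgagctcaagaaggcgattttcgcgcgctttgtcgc
Ccnd3, 5′ start, chr17:47504801-47505050, plus strand: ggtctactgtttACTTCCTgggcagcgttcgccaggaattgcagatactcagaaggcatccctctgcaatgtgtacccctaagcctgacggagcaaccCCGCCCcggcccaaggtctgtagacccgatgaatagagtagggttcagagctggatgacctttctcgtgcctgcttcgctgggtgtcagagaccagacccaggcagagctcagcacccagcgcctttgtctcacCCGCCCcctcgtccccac
Ccnd3, internal start, chr17:47593217-47593435, plus strand: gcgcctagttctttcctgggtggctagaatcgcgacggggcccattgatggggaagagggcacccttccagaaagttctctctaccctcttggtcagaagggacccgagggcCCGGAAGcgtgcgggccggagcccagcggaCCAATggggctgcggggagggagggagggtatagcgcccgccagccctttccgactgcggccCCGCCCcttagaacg
Matches were counted over the table's full windows, which add 50 bases after the start. The Cdk4 window held CACGTG 4 times, all of them in the printed stretch. Of all 20150 promoter windows of protein-coding genes, 8.03% held it at least once and 5 windows, that of Cdk4 among them, held it at least 4 times; this count was made after the Cdk4 sequence had been seen. The only Cdk6 window lay at an internal start, 2408 bp into the gene, so the 5′ start of Cdk6 was not among the 6 windows. This internal window, which is not printed because it holds annotated exon bases and no peak lay over it, held CACGTG 1 time. In human cells CDK4 is known as a target of MYC through such E-boxes. The Sp1 box was found in 5 of the 6 windows, against 47.8% of all windows. The Rbl2 window was the only one of the 6 with the cell cycle homology letters, against 16.9% of all windows. In both libraries these letters lay upstream of the Rbl2 promoter peaks, not under them. Both Ccnd3 windows held an ETS match, against 19.9% of all windows, and the internal one also held CCAAT, which 37.8% of all windows hold. The core of the cyclic AMP response element, TGACG, stood in 5 of the 6 windows, against 24.2% of all windows. The full element, TGACGTCA, stood in 0 of the 6, against 2.31% of all windows. For E2F only the letters TTTGGCGC, TTTCCCGC, TTTGGCGG and TTTCCCGG were searched. No window held them, and they stand in 4.29% of all windows. This says only that these letters are not in these windows. A related form, TTTCGCGC, was not searched, and it stands near the end of the printed Rbl1 sequence without capitals. The ratio of observed to expected CpG ranged over the 6 windows from 0.577 at the 5′ start of Ccnd3 to 0.946 at Rbl1, against a median of 0.588 over all windows.

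Among the D cyclins, Ccnd1 (chr7:144929931-144939925, minus strand), the cyclin best known for its response to mitogens, had its peak in an intron and not at the start of its protein. That peak covered chr7:144937536-144937794 in replicate 1, with its summit 2.26 kb into the gene, and chr7:144937531-144937796 in replicate 2. Its signal value was 7.58 in replicate 1 (33.7th percentile of the strict list) and 7.59 in replicate 2 (17.4th percentile), so the libraries gave nearly the same value. It counts as a promoter peak only through the start of a transcript with a retained intron, whose start lay 529 bp from the summit in replicate 1. At the 5′ start itself both libraries had a weaker peak in the less strict lists only, with signal values of 4.11 in replicate 1 and 4.36 in replicate 2. The −log10 global IDR of that 5′ peak was 0.876 in replicate 1 and 0.568 in replicate 2, both under the threshold of 1.30. One shared distal region lay 31.2 kb upstream (chr7:144970905-144971512), at 10.0 in replicate 1 and 11.5 in replicate 2, and had no other gene nearer.

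Ccnd2 (chr6:127125162-127152193, minus strand), the D cyclin of many lymphoid and progenitor cells, had no promoter peak in either strict list. In the less strict lists, replicate 1 had 3 promoter peaks, with signal values of 3.58, 3.56 and 4.34, and replicate 2 had 1 wide peak of 1056 bp with 3 summits and a value of 3.57. The highest −log10 global IDR of these peaks was 1.05 in replicate 1 and 0.850 in replicate 2. Accessible DNA was thus called over this promoter in both libraries, but in neither at the strict threshold. The distal regions of Ccnd2 were stronger than its promoter: 3 were shared by the strict lists. The one 10.9 kb upstream of the start (chr6:127162767-127163297) had signal values of 10.3 in replicate 1 and 10.4 in replicate 2. That 93.8 kb upstream had 6.28 in replicate 1 and 9.54 in replicate 2, and the third, 72.2 kb downstream, had 7.31 in replicate 1 and 10.9 in replicate 2 but lay in Fgf23.

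Ccnd3 (chr17:47505051-47599691, plus strand), the D cyclin used widely in blood cells, was open at internal starts near its 3′ end. The shared peak lay over an exon 90.6 kb from the 5′ start (chr17:47595488-47596084 in replicate 1), where coding transcripts begin. Its signal value was 7.79 in replicate 1 (37.0th percentile) and 8.26 in replicate 2 (27.4th percentile). At the 5′ start, replicate 1 had a strict peak at chr17:47504928-47505175 with a signal value of 5.22 (3.26th percentile), and replicate 2 had one in the less strict list only, at 3.90. Their −log10 global IDR was 1.60 in replicate 1 and 0.332 in replicate 2, so the libraries fell on different sides of the threshold. The same held 88.4 kb from the 5′ start, over the internal promoter printed above, with 5.55 in replicate 1 (strict list) and 4.40 in replicate 2 (less strict list). The 5′ start, which is also a coding start, and the internal promoter at 88.4 kb had strict peaks in replicate 1 only. The internal coding start at 90.6 kb had them in both libraries.

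Ccnd3 also held 4 of its 5 shared distal regions within its own introns. The strongest of them, 16.7 kb from the 5′ start (chr17:47521377-47521891), had signal values of 11.7 in replicate 1 (83.6th percentile) and 11.6 in replicate 2 (74.3rd percentile). The region 3.06 kb into the gene had 7.62 in replicate 1 and 7.54 in replicate 2. A pair of replicate 1 peaks, 36.8 and 37.2 kb into the gene, had signal values of 2.48 and 8.58, and both overlapped a single replicate 2 peak with a value of 8.39. The fifth region lay 96.4 kb upstream, nearer to another gene, at 6.57 in replicate 1 and 9.77 in replicate 2. As many as 5 such regions were found for 4.62% of all genes. This count of 5 includes both peaks of the pair over a single replicate 2 peak. With an overlap of at least 50% of each peak required, Ccnd3 had 4.

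Of the kinases, Cdk4 (chr10:127063534-127067920, plus strand), a short gene, had a wide peak over its start, spanning 714 bp in replicate 1 and 895 bp in replicate 2. The summit lay 188 bp before the start in replicate 1 and 217 bp before it in replicate 2, inside the printed sequence with its E-boxes. The signal value was 7.78 in replicate 1 (36.8th percentile) and 9.47 in replicate 2 (47.6th percentile). Cdk4 was the nearest gene to neither of its 2 shared distal regions. One lay in Ctdsp2, 76.7 kb upstream, at 5.01 in replicate 1 and 5.21 in replicate 2. The other lay 73.2 kb downstream and 15.6 kb from Os9, at 10.1 in replicate 1 and 11.5 in replicate 2.

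Cdk6 (chr5:3341485-3531008, plus strand), whose protein in human blood is low in long-term and higher in short-term stem cells, had no promoter peak in either strict list. In the less strict lists a peak lay at the 5′ start in both libraries, with signal values of 4.22 in replicate 1 (24.5th percentile) and 4.05 in replicate 2 (12.6th percentile). The −log10 global IDR of that peak was 0.925 in replicate 1 and 0.886 in replicate 2. Further peaks of the less strict lists lay 1.61 kb into the gene, at 3.84 in replicate 1 and 3.65 in replicate 2, and about 3 kb into it, at 3.26 in replicate 1 and 2.92 in replicate 2. The 31 bases around the last summit in replicate 1 occur 2 times in the genome.

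The strict distal regions of Cdk6 both lay upstream, with Cdk6 as the nearest gene. The one 68.1 kb upstream (chr5:3273101-3273530) had signal values of 10.7 in replicate 1 and 9.29 in replicate 2. The 31 bases at its summit occur 3 times in the genome. The one 40.2 kb upstream (chr5:3301162-3301563) had 9.35 in replicate 1 and 9.82 in replicate 2. None lay inside this gene of 189.5 kb in the strict lists, but the less strict lists held 10 shared regions in its introns among 13 in all, a total reached by 3.23% of all genes. The window searched around Cdk6 was long, 329.5 kb. Per 100 kb of window, its density in the less strict lists was reached by 13.1% of all genes. In the strict lists its density was reached by 35.4%. The strongest of the intronic ones, 79.6 kb from the start, had signal values of 8.26 in replicate 1 and 10.1 in replicate 2. The other 9 lay between 3.55 and 7.94 in replicate 1, and 2 of them were nearer to the start of Fam133b.

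Of the pocket proteins, Rbl2 (chr8:91070057-91123844, plus strand) encodes p130, which accumulates in quiescent cells and joins the DREAM complex. It had the strongest promoter peaks of the 8 genes in both libraries. A peak at the start itself (chr8:91069934-91070200 in replicate 1) had a signal value of 11.5 in each library, at the 82.5th percentile in replicate 1 and the 73.0th in replicate 2. Its −log10 global IDR was 3.42 in replicate 1 and 2.64 in replicate 2. A separate peak lay about 0.7 kb into the gene, over an exon, with 9.82 in replicate 1 and 10.7 in replicate 2. Rbl2 was the only one of the 8 that kept an open promoter when each strict list was limited to its 50% strongest peaks. At that limit 26.3% of all genes had an open promoter.

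In the strict lists Rbl2 also had the most shared distal regions of the 8 genes, 6, a number reached by 2.18% of all genes. It kept this rank, with 6, when an overlap of at least 50% of each peak was required. The rank did not hold in the less strict lists, where Ccnd3 and Cdk6 had 13 each, Cdk4 10 and Rbl2 9. Nor did it hold where the gene had to be the nearest, with 4 for Ccnd3 and 3 for Rbl2. Rbl2 was also below Ccnd3 in both series-level lists, within 20 kb and in replicate 1 alone. Within 50 kb and with coding starts only it was level with Ccnd3, and among the 50% strongest peaks with Rb1. In replicate 2 alone Rbl2 kept the rank, with 7. Of the 6 strict regions, 3 had Rbl2 as their nearest gene. They lay 18.9 kb upstream, inside an annotated transcript of Chd9, at 6.88 in replicate 1 and 7.45 in replicate 2; 15.4 kb upstream, at 7.65 in replicate 1 and 6.70 in replicate 2; and in an intron at 7.61 kb, at 6.42 in replicate 1 and 7.11 in replicate 2. The stronger ones were nearer to other genes. A region 93.0 kb upstream, inside Chd9, had 13.99 in replicate 1 (94.7th percentile) and 14.8 in replicate 2 (93.9th percentile), the highest values among all distal regions of the 8 genes. A pair lay inside Aktip on the downstream side: the one 121.0 kb from the Rbl2 start had 12.4 in replicate 1 and 13.7 in replicate 2 and lay within 100 kb of noncoding Rbl2 starts only, and the one at 90.3 kb had 8.63 in replicate 1 and 7.29 in replicate 2.

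Rb1 (chr14:73183673-73325822, minus strand), the founding tumour suppressor of the family, had its promoter peak in an intron, 1.12 kb from the start. In replicate 2 it passed the strict threshold, with a signal value of 7.07 (11.1th percentile) and a −log10 global IDR of 1.39. In replicate 1 the peak was in the less strict list only, with a value of 4.90 and a −log10 global IDR of 1.13. The 2 libraries thus lay on either side of 1.30. Before the start, at −0.252 kb, the less strict list of replicate 1 alone had a peak, at 3.37. None of its 4 shared distal regions had Rb1 as the nearest gene, and none lay inside its body of 142.2 kb. Of these, 3 clustered beyond its 3′ end towards Rcbtb2: at 149.8 kb from the start, with 9.06 in replicate 1 and 11.04 in replicate 2; at 208.6 kb, with 10.6 in replicate 1 and 11.6 in replicate 2; and at 220.3 kb, with 6.75 in replicate 1 and 8.46 in replicate 2. The first of them lay inside Rcbtb2, 1.60 kb from a start of that gene. These 3 lie within 100 kb of an internal, noncoding Rb1 start but not of a coding one. The fourth, 72.7 kb upstream, was nearest to Itm2b, with 7.67 in replicate 1 and 8.56 in replicate 2.

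Rbl1 (chr2:157145893-157204534, minus strand) encodes p107, the pocket protein that rises in dividing cells. Its promoter peak, 264 bp before the start in replicate 2, had a signal value of 6.84 (8.78th percentile) and a −log10 global IDR of 1.45. In replicate 1 the corresponding peak, in the less strict list only, had 5.42 and a −log10 global IDR of 1.09. Its single shared distal region, 55.4 kb upstream, lay inside Mroh8, 1.86 kb from that gene's start, at 8.70 in replicate 1 and 9.71 in replicate 2. By signal value, Rbl2 stood above the other two pocket proteins in each library: Rbl2 at 11.5 in both, Rb1 and Rbl1 at 4.90 and 5.42 in replicate 1 and at 7.07 and 6.84 in replicate 2, with Rb1 and Rbl1 in opposite order in the 2 libraries.

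**Figure D1:**
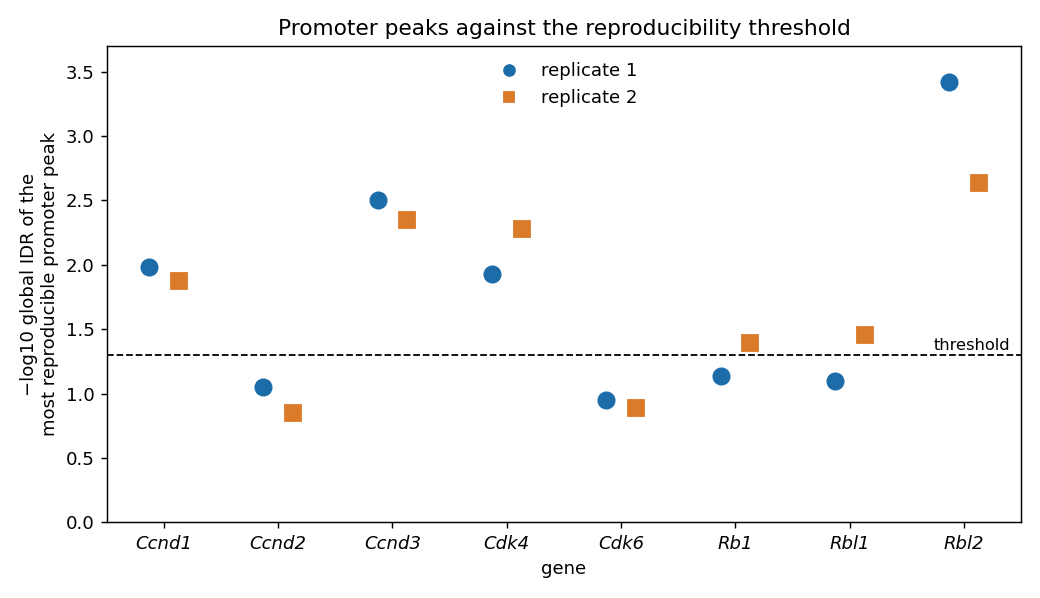
Each point is the highest −log10 global IDR of any promoter peak of a gene (vertical axis, no unit) in 1 library, circles for replicate 1 and squares for replicate 2; the dashed line is the strict threshold of 1.30. Rbl2, Ccnd3, Cdk4 and Ccnd1 lie above it in both libraries, Rb1 and Rbl1 on either side of it, and Ccnd2 and Cdk6 below it in both.

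Of the 4 open promoters 3 were weaker than that of the median open gene. The median signal value of the strongest promoter peak was 7.78 over the 4 genes and 10.3 over the 9329 open genes in replicate 1, and 8.87 over the 4 and 10.9 over all open genes in replicate 2. As percentiles of the strict list these medians were 36.9 over the 4 and 71.5 over all open genes in replicate 1, and 37.5 over the 4 and 66.5 over all open genes in replicate 2. Rbl2 alone lay above the median of all open genes, in both libraries. Ccnd1, Ccnd3 and Cdk4 lay below it in both.

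Taking the 8 genes together, 24 shared distal regions lay within 100 kb of a start or inside the gene, outside every promoter. Every gene had at least 1, as did 62.6% of all genes, and Ccnd3, Rb1 and Rbl2 had at least 4, as did 9.71% of all genes. The median was 2.5 per gene over the 8 and 1.0 over all genes. Windows differ in length with the gene; per 100 kb of window the median was 1.11 regions over the 8 and 0.488 over all genes. One of the 8 was the nearest gene for 12 of the 24 regions. With starts of protein-coding transcripts only, the 8 genes had 23 regions, of which Ccnd1 had 2, Cdk4 4, Rb1 1 and Rbl2 5, and the others as before. In the less strict lists 72 regions were shared, with a median of 8.5 per gene against 4.0 over all genes. There, 7 of the 8 genes had at least 8, against 19.7% of all genes, and Rbl1 had 3.

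**Figure D2:**
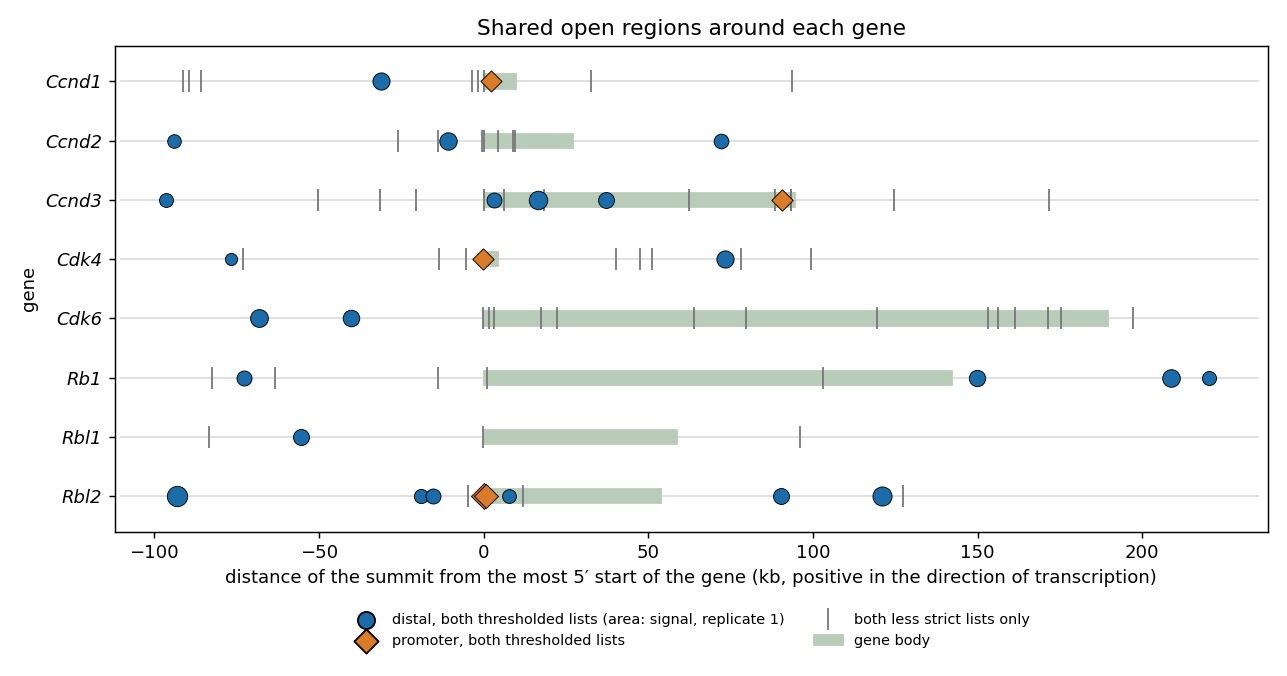
Rows are genes, and the horizontal axis is the distance in kb of a peak's summit from the most 5′ start, positive in the direction of transcription; circles are distal and diamonds promoter regions in both strict lists (area scales with the replicate 1 signal value), and grey ticks are regions shared only by the less strict lists. Ccnd3 holds 4 strict distal regions inside its body, Cdk6 holds grey ticks there but no strict region, and 3 of the 4 of Rb1 lie beyond its 3′ end.

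**Figure D3:**
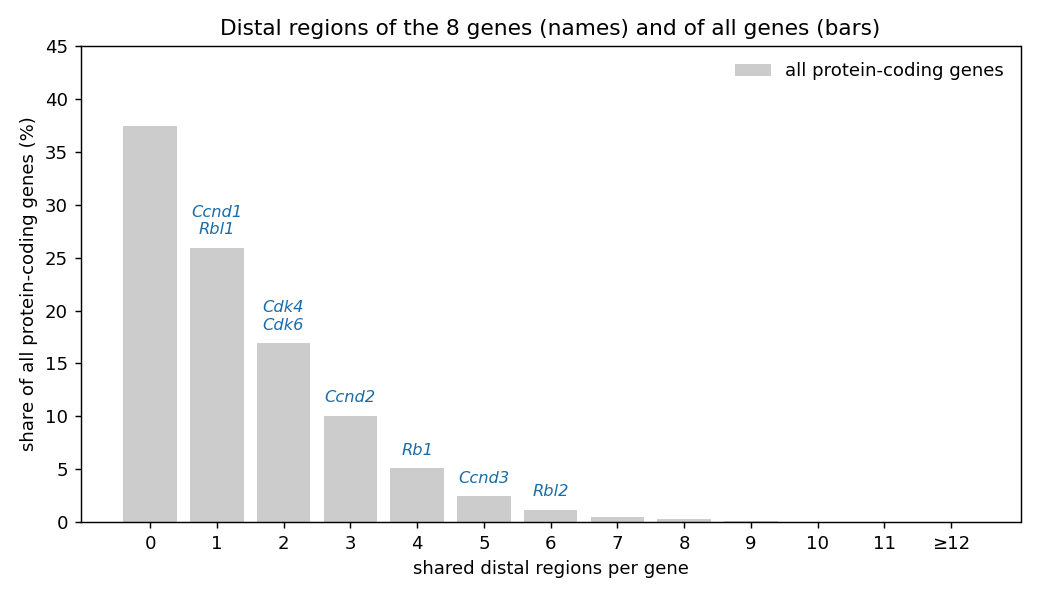
Bars give the share of all 21938 protein-coding genes (%) at each number of shared distal regions per gene in the strict lists, and names are placed at the number of each of the 8 genes. None of the 8 stands at 0, and Rbl2 with 6 and Ccnd3 with 5 stand in the right tail, where 2.18% and 4.62% of all genes have as many or more. The 5 of Ccnd3 include a pair of replicate 1 peaks over a single replicate 2 peak.

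The distal regions of the 8 genes were of middling strength. Their median percentile was 50.4 in replicate 1, against 52.4 over all 10824 shared distal regions, and 49.7 in replicate 2, against 54.0. Between the libraries their signal values had a Pearson r of 0.62 on the log2 scale and a Spearman rho of 0.73 over the 24 regions. Without the weakest replicate 1 region, the Ccnd3 peak at 2.48 that shares a replicate 2 peak with its neighbour, r was 0.80 and rho 0.74 over 23 regions. These correlations describe 1 set of regions within 2 libraries, whose regions share library and depth, and carry no p-value. Inside a protein-coding gene lay 13 of the 24, against 46.6% of all shared distal regions.

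**Figure D4:**
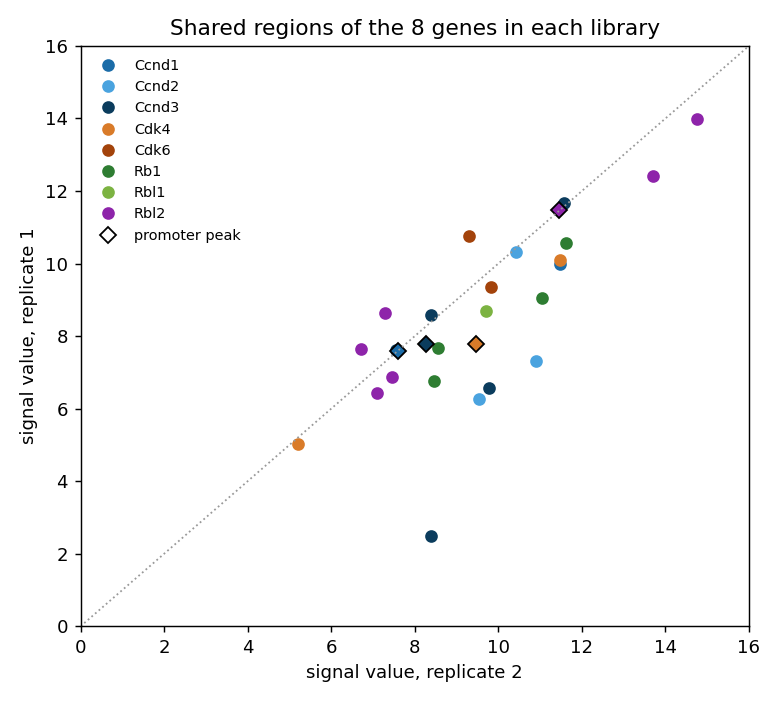
Circles are the 24 shared distal regions of the 8 genes, and outlined diamonds the strongest promoter peak of the 4 open genes, with the signal value (no unit) in replicate 1 on the vertical and in replicate 2 on the horizontal axis; the dotted line marks equal values. The regions 93.0 kb upstream and 121.0 kb downstream of the Rbl2 start are highest in both, and the lone low point is the Ccnd3 region at 2.48 in replicate 1 and 8.39 in replicate 2.

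A few of the distal summits are printed, with 50 bases either side of the replicate 1 summit on the strand of the gene in GRCm38.p6, read from the RefSeq genome. They are the strongest region by replicate 1 signal value of Rbl2 and of Ccnd3, both strict regions of Cdk6, the strongest of Rb1, and a region of Rbl2 that holds 2 motifs. Capitals mark TGTGGT (a short RUNX core), CCGGAAG or AGGAAGT (ETS), TGANTCA (AP-1) and, for GATA factors, AGATAA, on either strand; RUNX, ETS and GATA factors include those that set up and keep blood stem cells.
Rbl2 at 93.0 kb upstream, chr8:90977037-90977137, plus strand: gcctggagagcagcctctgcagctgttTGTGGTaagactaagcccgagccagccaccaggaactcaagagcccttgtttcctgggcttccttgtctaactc
Rbl2 at 18.9 kb upstream, chr8:91051152-91051252, plus strand: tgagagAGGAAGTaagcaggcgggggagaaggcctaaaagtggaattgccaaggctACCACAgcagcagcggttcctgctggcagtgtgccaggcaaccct
Ccnd3 at 16.7 kb in an intron, chr17:47521673-47521773, plus strand: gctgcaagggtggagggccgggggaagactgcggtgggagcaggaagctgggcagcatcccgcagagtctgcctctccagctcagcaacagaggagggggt
Cdk6 at 68.1 kb upstream, chr5:3273331-3273431, plus strand: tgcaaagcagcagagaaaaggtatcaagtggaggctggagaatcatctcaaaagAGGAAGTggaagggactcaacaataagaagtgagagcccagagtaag
Cdk6 at 40.2 kb upstream, chr5:3301261-3301361, plus strand: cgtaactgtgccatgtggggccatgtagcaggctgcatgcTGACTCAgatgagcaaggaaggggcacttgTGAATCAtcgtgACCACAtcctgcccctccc
Rb1 at 208.6 kb downstream of the start, chr14:73117131-73117231, minus strand: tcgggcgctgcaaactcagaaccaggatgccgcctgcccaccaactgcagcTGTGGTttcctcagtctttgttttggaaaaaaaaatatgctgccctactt
The short RUNX core stood in 8 of the 24 windows (33.3%), against 22.1% of all shared distal windows of that length, and the longer TGTGGTT in 2, against 10.4%. The ETS letters stood in 3 windows, against 19.5%: that of Cdk6 at 68.1 kb, that of Rbl2 at 18.9 kb and that of Cdk4 at 73.2 kb. The AP-1 letters stood in 2, against 6.12%, and the window of Cdk6 at 40.2 kb held them 2 times. No window held AGATAA, which 3.92% of all windows hold. Some of these shares turned with the width: with 100 bases either side of the summit, 4 of the 24 held AGATAA, against 8.82% of all windows, and 5 held TGTGGTT, against 15.8%. The strongest Ccnd3 window held none of these letters. These are matches of letters, not sites, and with 24 windows the shares rest on a handful of regions.

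Among the other genes of the pathway the open share was higher, without a test of the difference. Of a list of 38, 28 (73.7%) had an open promoter in both strict lists, against 4 of the 8 and 42.5% of all genes; 3 had a peak in 1 library and 7 in neither. In the less strict lists 37 of the 38 were open in both, against 59.5% of all genes. The strongest were Ccna2, the cyclin of S phase and mitosis, at 16.8 in replicate 1 and 18.5 in replicate 2; Skp2, which marks the Cdk inhibitor p27 for destruction, at 16.4 and 16.5; and Mybl2, encoding B-Myb of the mitotic MuvB complex, at 15.9 and 16.8, in the same order of libraries. Each of these lay above Rbl2, the strongest of the 8, at 11.5 in both.

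Among the brakes on Cdk4 and Cdk6, the INK4 inhibitors, 2 of 4 were open; Cdkn2b had a peak in replicate 2 only, at 8.66, and Cdkn2a in neither strict list. Of the Cip/Kip inhibitors 2 of 3 were open, and Cdkn1c, encoding p57, which keeps stem cells quiescent, had a peak in replicate 1 only, at 6.38. Of the E2F and DP factors, only some of which the pocket proteins hold, 7 of 10 were open, the exceptions being E2f2, E2f6 and Tfdp1. Of the MuvB core, which joins Rbl2 or Rbl1 in DREAM, and B-Myb, which binds the core after the pocket protein has left, 5 of 6 were open and Lin9 was not. Of the E and A cyclins and Cdk2, which act after the pocket proteins, 4 of 5 were open; the germ-line cyclin Ccna1 was not, and it alone also lacked a promoter peak shared by the less strict lists. Of the kinase complex that activates Cdks 2 of 3 were open and Mnat1, its assembly factor, was not. Of the genes of turnover and other brakes 6 of 7 were open, and Ambra1, which directs the destruction of D cyclins, had a peak in replicate 2 only, at 7.38. The share over all genes in both strict lists was 42.5%. The groups are small, and no test was made between them.

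**Figure D5:**
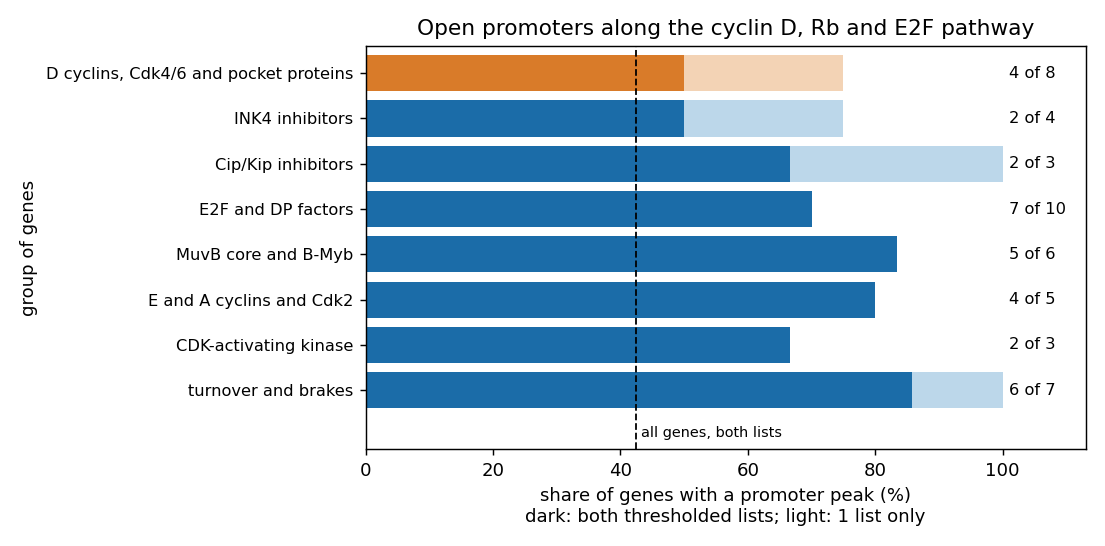
Bars give the share of genes (%) in each group with a promoter peak in both strict lists (dark) or in 1 of them (light), with the counts at the right, and the dashed line marks the 42.5% of all protein-coding genes with one in both. The 8 genes and the INK4 inhibitors stand at 50% and every other group above them.

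The lists held 25141 strict peaks in replicate 1 and 24495 in replicate 2, with median signal values of 8.57 and 9.64 in that order, and 62918 and 64843 less strict peaks. Of the strict peaks 78.5% in replicate 1 and 80.2% in replicate 2 overlapped one of the other library. Of 8 stem cell markers Kit, Cd34, Hlf and Fgd5 had an open promoter; Ly6a, Procr, Slamf1 and Mecom did not, and 7 of the 8 did in the less strict lists. Of 27 markers of mature lineages 4 (14.8%) had one, against 42.5% of all genes: Pf4, Itga2b and Gp9 of megakaryocytes and Pax5 of B cells. None of the erythroid, of the granulocyte and monocyte, or of the T and NK cell markers had one in both. A strict peak in 1 library only was found for 4 of the 27: Klf1 at 8.84, Epor at 8.0 and Lck at 7.62 in replicate 1, and Ebf1 at 6.21 in replicate 2. By the less strict lists the number was 12 of the 27, against 59.5% of all genes. The part of other cells in the regions above was not tested.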

How the data were processed

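ATAC-seq peak lists of 2 libraries were used as deposited, in mm10 coordinates. Per the labels the files come from a uniform pipeline; aligner, peak caller and versions: not given in the sources used here, as is any shift of Tn5 read ends. The authors' columns are a signal value, the −log10 of a p-value and of a q-value, and, in the ranked lists, an IDR score as deposited, on the −log10 scale.

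An interval listed with several summits was kept once, with the strongest (Python 3.11.15, numpy 2.4.6, pysam 0.24.0). Genes and 93513 transcript starts came from GENCODE M21. A promoter was 1000 bp either side of a start. Sharing needed 1 bp of overlap. Distal regions are replicate 1 peaks that overlap a replicate 2 peak, with a summit over 1000 bp from every protein-coding gene's start and within 100 kb of a start of the gene or inside it. Distances are from the most 5′ start. The calling steps were tested on simulated peaks first. Motifs were matched as letters on both strands, and copies of summit sequence as exact words of 31 bases.

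All 8 genes are named. Of the 38 pathway genes, the 3 open ones with the highest mean signal percentile and every gene with a peak in 1 or in neither strict list are named, beside nearer neighbours and markers. The members and lists were chosen with earlier results of these data known. No p-value was computed. Alternatives were other lists, windows, starts, overlaps and single libraries. One listed marker is not reported here.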

Additional observations from a re-analysis of the deposited data

How the results depend on the processing

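The count of open promoters among the 8 genes moved with the strictness of the lists and with the choice of starts. It was 4 in the strict lists, 8 in the less strict ones, 7 in the series-level thresholded list (53.4% of all genes), 8 in the series-level conservative list (56.3% of all genes) and 1 among the 50% strongest peaks. In the strict lists it was 3 with protein-coding transcripts only and 2 with the most 5′ starts only. The 50% strongest peaks also lowered the pathway count to 17, against 28, and the share of all genes to 26.3%, against 42.5%. The distal count, 24, was 72 in the less strict lists, 49 and 62 in the series-level lists (thresholded and conservative), 10 among the 50% strongest peaks, 12 within 50 kb, 8 within 20 kb and 12 where the gene had to be the nearest. The median percentile of the open promoters in replicate 1, 36.9, was 73.6 in the less strict list, which holds more weak peaks. ETS letters stood in 5 distal windows with 100 bases either side of the summit, against 3 with 50, while their share of all windows was 28.2%, against 19.5%. With the wider windows the GATA letters stood in 4, against 0, the longer RUNX letters in 5, against 2, and CCAAT in 3, against 1. With 1 library alone the ranges were 4 to 6 open promoters of the 8, 29 to 30 of the pathway list, 45.5% to 47.2% of all genes, and 32 to 36 distal regions. Promoter windows of 500 or 2500 bp left the count of 8 genes at 4. No paired analysis was possible because the series has 1 group. Depth is unknown, so no floor or interval could be given.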
